A study of Homo sapiens with 9 samples.

Results

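The ADAM and ADAMTS proteases measured here were 10 genes, ADAM8, ADAM9, ADAM10, ADAM12, ADAM15, ADAM17, ADAM19, ADAM23, ADAMTS1 and ADAMTS5. They were read by all 30 probe sets that carry one of these symbols in the array's annotation, out of 54613 probe sets without controls. RNA was profiled in 3 human breast cancer cell lines that all express green fluorescent protein (GFP). B6TC is GFP+ and grows without estrogen, and most of its cells resist puromycin as well as G418. The study took it from a single tumor that formed without estrogen from bone marrow cells of 1 mouse, and regards it as a fusion line of the other two. MDA-MB-231/GFP/Neo is estrogen receptor (ER) negative, resists G418 and is 1 clone of transfected MDA-MB-231 cells. ZR-75-1/GFP/puro is ER positive and is a pool of transfected cells that resist puromycin. Each line was hybridized to 3 Affymetrix Human Genome U133 Plus 2.0 arrays, 9 in all. The labels call the 3 arrays of a line technical replicates, so that the p-values measure only the spread between such arrays and not that between cultures.

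ADAM proteins are membrane-anchored metalloproteinases. They cut other membrane proteins close to the cell surface, a process called ectodomain shedding, and so release growth factors, cytokines and adhesion molecules. ADAM10 and ADAM17 are the main sheddases of most cells, for Notch receptors and cadherins and for tumor necrosis factor and ligands of the epidermal growth factor receptor. ADAMTS proteins are secreted relatives with thrombospondin repeats that cut proteoglycans of the extracellular matrix. Several members of both families are known from invasive breast cancer cells and from the turnover of matrix in metastasis.

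The deposited values are log2 expression values, 1 per probe set and array. Array medians ran from 4.89 to 4.96. Probe sets with a value of 6 or more on no fewer than 3 of the 9 arrays entered the test, 21095 in all. The lines were set against each other in 1 limma fit, in which a probe set counts as called where its Benjamini-Hochberg adjusted p, taken over all those tested, is 0.05 or less. The luminal markers of ER positive cells averaged 6.91 to 7.77 on B6TC arrays, 6.9 to 7.0 on MDA-MB-231 arrays and 11.34 to 11.43 on ZR-75-1 arrays, over 9 genes. None of 3 leukocyte markers reached 6 in any line. The third B6TC array stood apart at probe sets that are high in ZR-75-1 alone. It lay above the mean of the first and second at 213 of these 226 (94.2%), with a median difference of 0.38. Over all probe sets, median absolute differences were 0.087 for arrays 1 and 3, 0.094 for 1 and 2 and 0.101 for 2 and 3. Poly-A spike-ins, which are added before labeling, averaged 9.08 on B6TC arrays, 5.68 on MDA-MB-231 arrays and 7.54 on ZR-75-1 arrays. The 3′ minus 5′ log2 difference of the ACTB control probe sets is a sign of RNA and labeling quality. It averaged 0.67 in B6TC (0.669 to 0.674), 0.32 in MDA-MB-231 (0.284 to 0.338) and 0.73 in ZR-75-1 (0.694 to 0.770). The 3 lines did not overlap. The part of both controls in the differences below was not tested.

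Of the 10 genes, 7 had a probe set that passed the filter, with 15 such probe sets in all. ADAM12, ADAM23 and ADAMTS5 had none. Read by the probe set that was brightest over the 9 arrays, the 7 genes did not all move the same way between B6TC and MDA-MB-231. ADAM9, ADAM17 and ADAMTS1 were higher in B6TC and ADAM8, ADAM10, ADAM15 and ADAM19 were lower. Over the 15 tested probe sets, 4 were called higher in B6TC, 10 lower and 1 was not called. Of all probe sets tested, 65.1% were called in either direction. ADAM9 and ADAM17 each had another probe set that was called lower, so their direction depends on the probe set. Against ZR-75-1, 6 of the 7 were higher in B6TC and ADAM15 was lower. In MDA-MB-231 all 7 were higher than in ZR-75-1. Over all 10698 genes tested in the same way, 36.5% were called higher and 28.6% lower in B6TC cells than in MDA-MB-231. Against ZR-75-1 these shares were 42.8% and 41.5%. Between MDA-MB-231 and ZR-75-1 they were 42.6% and 41.8%. The median log2 difference of the 7 genes was −0.39 between B6TC and MDA-MB-231 (0.04 over all genes tested), 0.84 between B6TC and ZR-75-1 (0.00 over all) and 1.24 between MDA-MB-231 and ZR-75-1 (0.00 over all). The comparisons share arrays and are not independent of each other. ADAM8 and ADAM19 passed the filter through their B6TC and MDA-MB-231 arrays alone, so that these counts and medians against ZR-75-1 describe the genes and are not evidence about the family.

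**Figure D1:**
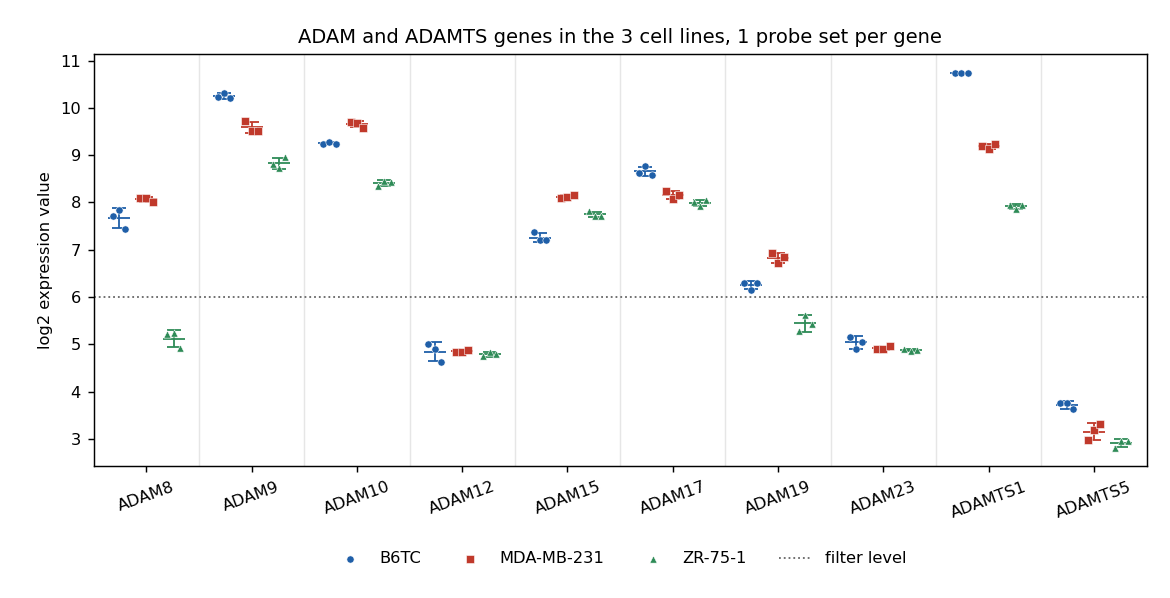
Log2 expression value on the y axis of the 10 ADAM and ADAMTS genes on the x axis, each at its brightest probe set. Points are single arrays of B6TC (blue circles), of MDA-MB-231 (red squares) or of ZR-75-1 (green triangles), bars give the mean and SD over the 3 arrays of a line, and ADAM12, ADAM23 and ADAMTS5 lie below the dotted filter level of 6 on all arrays. Heights of different genes come from different probes and are not to be compared.

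The order MDA-MB-231 above B6TC above ZR-75-1 was shared by ADAM8, ADAM10 and ADAM19, while ADAM15 was lowest in B6TC. The promoter sequences of these 4 genes are shown because the 4 were lower in B6TC cells than in MDA-MB-231 at every probe set tested. Each run is the 250 bases before the gene's start, read 5′ to 3′ on the gene's strand, from RefSeq on GRCh38.p14. Capitals mark GC boxes, the letters GGGCGG on either strand. The run of ADAM8 is chr10:133276869-133277118 on the minus strand. That of ADAM10 is chr15:58749708-58749957 on the minus strand. That of ADAM19 is chr5:157575776-157576025 on the minus strand, and that of ADAM15 is chr1:155051066-155051315 on the plus strand.
ADAM8: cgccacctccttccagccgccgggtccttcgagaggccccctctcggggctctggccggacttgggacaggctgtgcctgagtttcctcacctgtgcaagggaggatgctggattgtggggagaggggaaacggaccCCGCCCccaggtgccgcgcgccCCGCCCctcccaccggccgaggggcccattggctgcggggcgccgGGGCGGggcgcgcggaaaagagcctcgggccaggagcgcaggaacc
ADAM10: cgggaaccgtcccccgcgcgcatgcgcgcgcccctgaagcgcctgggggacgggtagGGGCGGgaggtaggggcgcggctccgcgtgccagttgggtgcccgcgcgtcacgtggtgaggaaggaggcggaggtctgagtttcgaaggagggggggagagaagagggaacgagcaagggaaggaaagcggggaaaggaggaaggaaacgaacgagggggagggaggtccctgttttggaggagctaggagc
ADAM19: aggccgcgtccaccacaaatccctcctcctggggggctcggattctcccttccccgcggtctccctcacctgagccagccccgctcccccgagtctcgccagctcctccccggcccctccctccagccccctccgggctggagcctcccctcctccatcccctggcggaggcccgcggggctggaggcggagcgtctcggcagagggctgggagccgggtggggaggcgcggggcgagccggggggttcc
ADAM15: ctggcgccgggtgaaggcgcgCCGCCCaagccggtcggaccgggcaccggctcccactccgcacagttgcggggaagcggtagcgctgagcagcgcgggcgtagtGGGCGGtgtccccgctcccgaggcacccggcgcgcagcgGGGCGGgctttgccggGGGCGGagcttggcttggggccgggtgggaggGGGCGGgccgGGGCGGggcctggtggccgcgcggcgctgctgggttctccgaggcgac
A GC box occurred 3 times upstream of ADAM8, once upstream of ADAM10, 6 times upstream of ADAM15 and not upstream of ADAM19. Of 35116 promoters of this length, 42.6% hold one. The 4 runs consist of G or C at 73.6% (ADAM8), 68.4% (ADAM10), 76.4% (ADAM19) and 79.6% (ADAM15) of their bases, where the median promoter has 58.0%. None of them holds TATAAA, which 10.7% of promoters hold, or the AP-1 letters TGANTCA, which 6.57% hold, on either strand. A CCAAT sequence, held by 32.0%, occurred upstream of ADAM8 alone of the 4. Of the 10 genes, 7 were matched in the promoter table. The other matched genes were ADAM12 and ADAM23, which were not tested, and ADAM17, which was higher in B6TC at its brightest probe set. Upstream of ADAM12, ADAM17 and ADAM23 a GC box occurred 3, 3 and 2 times, and none of the other motifs occurred. Their share of G or C was 73.6%, 75.6% and 73.6%. These features thus do not set apart the 4 genes that were lower.

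ADAMTS1, on chromosome 21 at chr21:26835755-26845409 (GRCh38.p14, as for all positions here), differed most of these genes between B6TC and MDA-MB-231. It encodes a secreted protease that cuts the proteoglycans versican and aggrecan. At probe set 222162_s_at its log2 level was 10.74, 10.73 and 10.74 for B6TC, 9.20, 9.14 and 9.23 for MDA-MB-231, and 7.95, 7.86 and 7.95 for ZR-75-1. Every B6TC array was above every parental array, and MDA-MB-231 lay above ZR-75-1 without overlap. The excess of B6TC was 1.55 over MDA-MB-231 (standard error 0.046, limma adjusted p = 1.1e-08), or 2.93-fold, and 2.82 over ZR-75-1 (standard error 0.046, limma adjusted p = 5.5e-12), or 7.04-fold. A second probe set, 222486_s_at, gave the same order, with 8.75 ± 0.06 for B6TC, 7.57 ± 0.05 for MDA-MB-231 arrays and 6.25 ± 0.12 for ZR-75-1 (SD, n = 3 arrays each). Its excess was 1.18 over MDA-MB-231 (limma adjusted p = 4.2e-07). These were the only 2 of the 15 probe sets that differed at least 2-fold between B6TC and MDA-MB-231, where 3.85% of all probe sets tested did.

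ADAM9 was called in opposite directions by its probe sets. ADAM9 is a widely expressed sheddase, also named meltrin gamma, and its gene is on chromosome 8. At 202381_at it was at 10.22, 10.31 and 10.21 in B6TC, 9.73, 9.51 and 9.52 in MDA-MB-231 and 8.80, 8.73 and 8.96 in ZR-75-1. Here B6TC exceeded MDA-MB-231 by 0.66 with a standard error of 0.077 (limma adjusted p = 3.8e-05), and ZR-75-1 by 1.42. At 1555326_a_at it was at 7.88, 7.88 and 7.89 in B6TC, 8.26, 8.11 and 8.18 in MDA-MB-231 and 6.64, 6.68 and 6.60 in ZR-75-1. There B6TC lay below MDA-MB-231, at a difference of −0.30 (standard error 0.049, limma adjusted p = 4.0e-04), and above ZR-75-1 by 1.24. The lines did not overlap at either probe set. The remaining probe set, 1570042_a_at, was between 3.48 and 4.01 on all arrays and was not tested. With the mean of the tested probe sets of a gene, the excess of B6TC over MDA-MB-231 for ADAM9 was 0.18 (limma adjusted p = 0.0121). ADAM9 was thus higher than in ZR-75-1 by both of its tested probe sets, while its difference from MDA-MB-231 depends on the probe set.

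The same was seen for ADAM17, the tumor necrosis factor converting enzyme, whose gene is at chr2:9488486-9555830. At 213532_at its level was 8.62, 8.77 and 8.59 in B6TC, 8.25, 8.07 and 8.16 in MDA-MB-231 and 8.01, 7.93 and 8.06 in ZR-75-1. B6TC was the highest line there, by 0.50 over MDA-MB-231 (standard error 0.066, limma adjusted p = 9.7e-05) and 0.66 over ZR-75-1. At 205745_x_at, whose name marks probes that may bind other transcripts, B6TC was lower than MDA-MB-231 at −0.24 (standard error 0.063, limma adjusted p = 0.00730), with arrays at 7.13, 7.22 and 7.22 in B6TC and 7.57, 7.39 and 7.33 in MDA-MB-231. At 205746_s_at the difference of −0.16 did not pass (limma adjusted p = 0.189), with arrays at 6.16, 6.11 and 5.83 in B6TC and 6.26, 6.13 and 6.19 in MDA-MB-231, and the lines overlapped. Averaged over its probe sets, ADAM17 differed by 0.03 between these lines (limma adjusted p = 0.624). All 3 probe sets were higher in B6TC cells than in ZR-75-1, though at 205746_s_at no ZR-75-1 array reached the filter level. MDA-MB-231 exceeded ZR-75-1 at them by 0.16 (limma adjusted p = 0.0407), 0.46 (limma adjusted p = 5.1e-05) and 0.61 (limma adjusted p = 2.3e-04), in the order above, and the first of these calls was lost in several alternative fits. Several tested probe sets were present for 4955 genes, of which 956 (19.3%) had calls of both signs for B6TC against MDA-MB-231, as had 2 of the 6 such genes here. What the probe sets of ADAM9 and ADAM17 read differently, and the part of the unlike ACTB 3′ minus 5′ differences of the lines in it, was not tested.

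**Figure D2:**
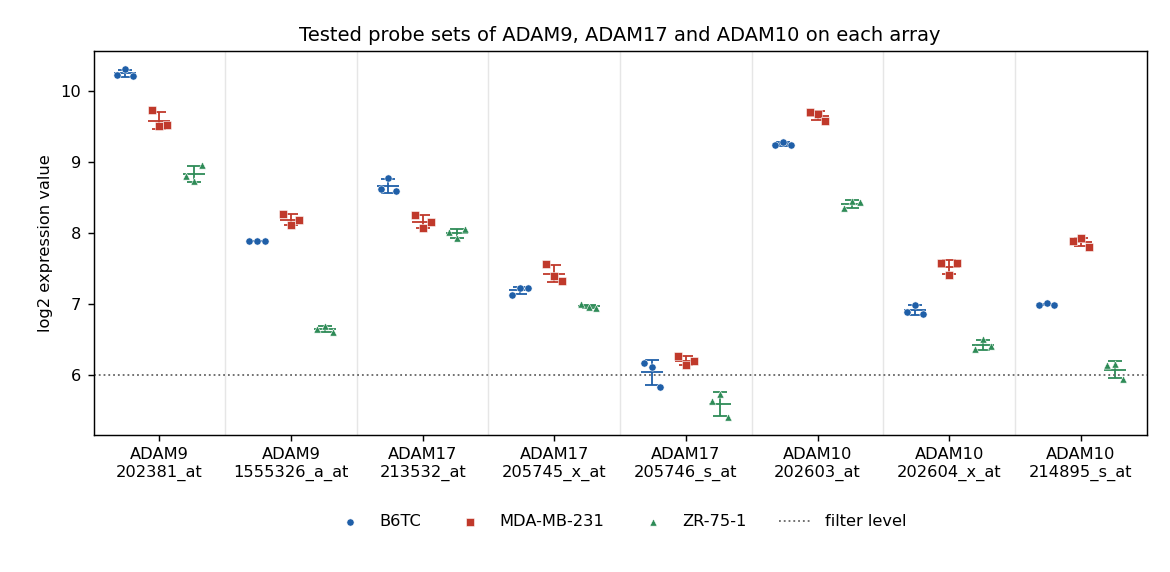
Log2 expression value on the y axis for each tested probe set (x axis) of ADAM9, ADAM17 and ADAM10. Points are single arrays of B6TC (blue circles), of MDA-MB-231 (red squares) or of ZR-75-1 (green triangles), with the mean and SD of each line as bars. B6TC lies above MDA-MB-231 at the first probe set of ADAM9 and of ADAM17 and below it at all 3 of ADAM10.

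ADAM10 was lower in B6TC cells than in MDA-MB-231 and higher than in ZR-75-1 at all 3 of its probe sets. It is the sheddase of Notch receptors and E-cadherin, and its gene is at chr15:58588809-58749707. At 202603_at its level was 9.24, 9.28 and 9.24 in B6TC, 9.70, 9.67 and 9.58 in MDA-MB-231 and 8.34, 8.45 and 8.44 in ZR-75-1, with no overlap between lines. The difference of B6TC was −0.40 from MDA-MB-231 (standard error 0.050, limma adjusted p = 6.7e-05) and 0.84 from ZR-75-1 (standard error 0.050, limma adjusted p = 6.2e-08). The sizes varied among the probe sets. From MDA-MB-231 they were −0.61 at 202604_x_at and −0.88 at 214895_s_at, and from ZR-75-1 they were 0.48 and 0.92.

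ADAM8 and ADAM19 lay between the parental lines in B6TC cells, like ADAM10. ADAM8 encodes a sheddase best known from leukocytes and inflammation, at chr10:133262423-133276868. At 205180_s_at it was at 7.72, 7.85 and 7.45 in B6TC, 8.10, 8.09 and 8.01 in MDA-MB-231 and 5.21, 5.24 and 4.92 in ZR-75-1. Every ZR-75-1 array was under the filter level, and every B6TC array was under every MDA-MB-231 array. The difference of B6TC was −0.39 from MDA-MB-231 (standard error 0.11, limma adjusted p = 0.00916) and 2.55 from ZR-75-1 (standard error 0.11, limma adjusted p = 4.6e-09), or 5.85-fold. Without the third B6TC array, which was the lowest, the difference from MDA-MB-231 was −0.28 (limma adjusted p = 0.0292). The other probe set, 205179_s_at, put B6TC at −0.57 from MDA-MB-231 cells and at 1.71 from ZR-75-1, with 6.57 ± 0.10 for B6TC, 7.13 ± 0.01 for MDA-MB-231 arrays and 4.86 ± 0.06 for ZR-75-1 (SD, n = 3 arrays each).
ADAM19, or meltrin beta, sheds neuregulin and lies at chr5:157477304-157575775. At 209765_at it was at 6.31, 6.15 and 6.31 in B6TC, 6.94, 6.72 and 6.84 in MDA-MB-231 and 5.27, 5.63 and 5.43 in ZR-75-1. B6TC lay between the parental lines without overlap, at −0.58 from MDA-MB-231 (standard error 0.092, limma adjusted p = 3.4e-04) and 0.81 from ZR-75-1 (standard error 0.092, limma adjusted p = 1.2e-05). As with ADAM8, all its ZR-75-1 arrays were under the filter level. The second probe set of ADAM19 was between 4.56 and 4.95 on all arrays and was not tested.

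ADAM15 was the one gene that was lowest in B6TC. It encodes metargidin, whose disintegrin domain binds integrins, at chr1:155051316-155062775. At 1555896_a_at its level was 7.37, 7.21 and 7.20 in B6TC, 8.09, 8.12 and 8.15 in MDA-MB-231 and 7.82, 7.72 and 7.72 in ZR-75-1. All B6TC arrays were below all parental arrays. B6TC differed by −0.86 from MDA-MB-231 (standard error 0.056, limma adjusted p = 9.4e-07) and by −0.50 from ZR-75-1 (standard error 0.056, limma adjusted p = 1.1e-05). Probe set 217007_s_at gave −0.96 and −0.56 for the same comparisons, with 6.45 ± 0.13 for B6TC, 7.42 ± 0.12 for MDA-MB-231 arrays and 7.01 ± 0.07 for ZR-75-1 (SD, n = 3 arrays each). MDA-MB-231 was higher than ZR-75-1 at both, by 0.36 and 0.40.
By limma, 14 of the 15 tested probe sets set B6TC apart from MDA-MB-231 (65.1% of all tested did), and all 15 differed in each comparison with ZR-75-1 (83.7% of all tested did for B6TC and 83.7% for MDA-MB-231), with B6TC above both parental lines at 4, between them at 8 and below both at 2. At the remaining probe set, 205746_s_at, B6TC was not told apart from MDA-MB-231. Both probe sets of ADAM8, 209765_at of ADAM19 and 205746_s_at of ADAM17 reached the filter level on no ZR-75-1 array. The filter thus favored their calls against ZR-75-1, and the counts that rest on that line are given as a description only. Of all 21095 probe sets tested, 14.9% lay above both, 21.8% between and 11.3% below both. The highest level was in B6TC for ADAMTS1, and at 1 probe set each of ADAM9 and ADAM17, and in MDA-MB-231 for ADAM8, ADAM10, ADAM15 and ADAM19. ZR-75-1 was the lowest line for all of the 7 genes except ADAM15. MDA-MB-231 exceeded ZR-75-1 by 2.94 for ADAM8 (limma adjusted p = 1.5e-09), or 7.69-fold, by 1.39 for ADAM19, 1.27 for ADAMTS1, 1.24 for ADAM10 and 0.76 for ADAM9, at the brightest probe set of each gene. At 1555326_a_at the difference for ADAM9 was 1.54. Without the third B6TC array the 7 calls of each B6TC comparison kept their direction, and 3 genes were higher and 4 lower than in MDA-MB-231.

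**Figure D3:**
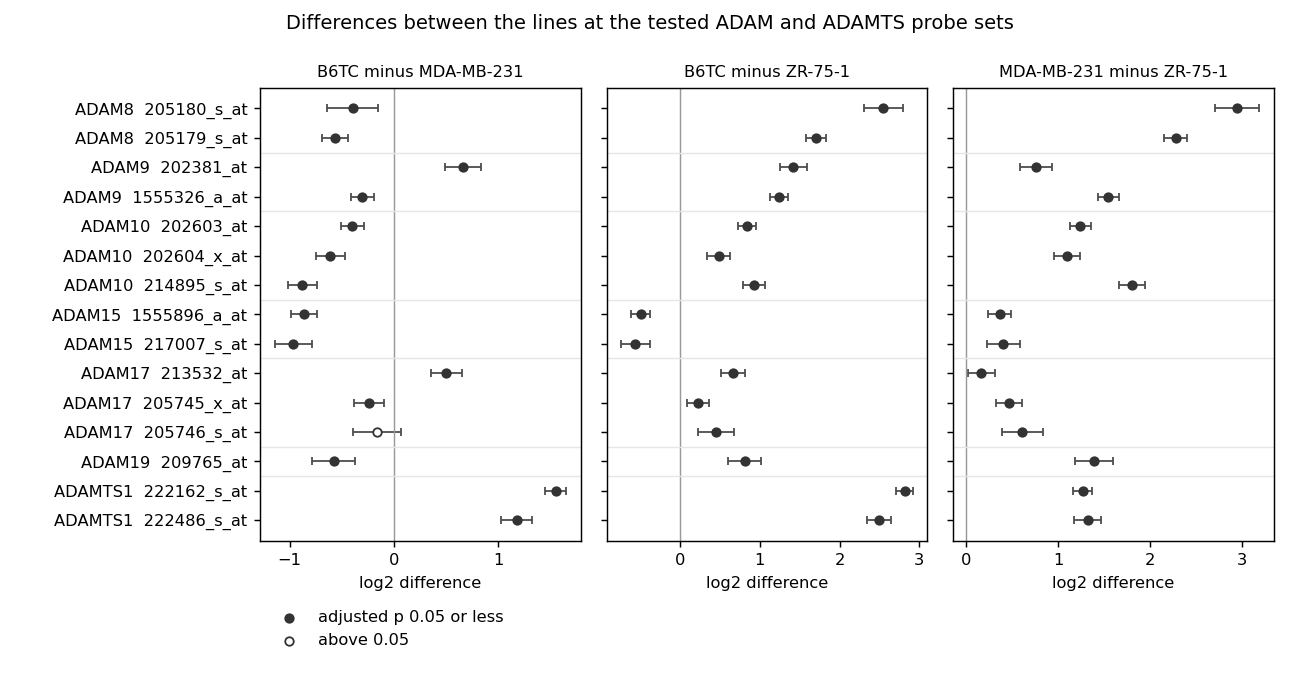
Log2 difference on the x axis between each pair of lines at the 15 tested probe sets of the 7 genes, on the y axis. Points are limma estimates from 3 arrays per line, bars are 95% confidence intervals, and the open circle is the one difference above an adjusted p of 0.05, that of 205746_s_at of ADAM17 between B6TC and MDA-MB-231.

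ADAM12, ADAM23 and ADAMTS5 were under the filter level at each of their 13 probe sets on all 9 arrays. ADAM12, or meltrin alpha, sheds ligands of the epidermal growth factor receptor (gene at chr10:126012391-126388477), and its 5 probe sets had line means between 2.98 and 4.86. ADAM23 lacks a working catalytic site and is known from the nervous system (gene at chr2:206443532-206621127), and its 4 probe sets had line means between 2.53 and 5.04. ADAMTS5 is an aggrecanase of cartilage, encoded at chr21:26917922-26967088 on the chromosome of ADAMTS1. At 229357_at its log2 level was 3.77, 3.76 and 3.63 in B6TC, 2.97, 3.19 and 3.31 in MDA-MB-231 and 2.82, 2.96 and 2.96 in ZR-75-1. The B6TC arrays lay above all others there, but all 9 values are under the median of any array. In a fit with no filter over 54613 probe sets, B6TC was above MDA-MB-231 by 0.56 at this probe set (limma adjusted p = 8.0e-04) and by 0.61 at 219935_at (limma adjusted p = 0.00454), while the other 2 probe sets of ADAMTS5 gave 0.08 and −0.02 and did not pass. In the same fit no probe set of ADAM12 differed between B6TC and MDA-MB-231, and 2 of its 5, 202952_s_at and 226777_at, lay above ZR-75-1 in B6TC cells, by 0.56 and 0.68 (limma adjusted p = 2.7e-04 and 1.5e-04). For ADAM23, B6TC lay above MDA-MB-231 at 213808_at by 0.30 (limma adjusted p = 0.0192), and its 3 MDA-MB-231 arrays hold one and the same value, 2.78.

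Other genes of the families were mostly under the filter level as well. Of 22 other ADAMTS and ADAMTS-like genes on the array, 5 were tested. Between B6TC and MDA-MB-231, 1 was higher and 2 were lower, with a median of −0.12 beside 0.04 over all genes. Of all genes tested, 36.5% were higher and 28.6% lower. ADAMTS6, a relative of ADAMTS10 in the matrix of connective tissue, was at 9.76, 9.73 and 9.67 in B6TC, 8.60, 8.40 and 8.47 in MDA-MB-231 and 3.80, 2.44 and 2.65 in ZR-75-1. Like ADAMTS1 it was highest in B6TC, by 1.23 over MDA-MB-231 (standard error 0.28, limma adjusted p = 0.00305), and its ZR-75-1 values were under the median of any array. ADAMTS15, which cuts versican and aggrecan, was lower than in MDA-MB-231 at −0.97 (standard error 0.096, limma adjusted p = 1.3e-05), and ADAMTS12 was lower at −0.49. In ZR-75-1 they averaged 4.56 and 5.00, under the filter level. The differences of ADAMTS9 and ADAMTSL1 from MDA-MB-231, −0.12 and −0.07, did not pass. Against ZR-75-1, 4 of the 5 were called higher in B6TC, but none of the 4 reached the filter level on a ZR-75-1 array, so that the filter favored this count and it is given as a description only. Of 11 other ADAM genes on the array, ADAM33 alone was tested, with 7.05 ± 0.07 for B6TC, 6.88 ± 0.05 for MDA-MB-231 arrays and 7.09 ± 0.03 for ZR-75-1 (SD, n = 3 arrays each). The excess of B6TC over MDA-MB-231 was 0.17 (limma adjusted p = 0.0110).

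ADAM proteases need other proteins to reach the cell surface and to lose their inhibitory prodomain. Of 13 such genes tested, 4 were higher and 3 lower in B6TC cells than in MDA-MB-231, where 36.5% and 28.6% of all genes were. Compared with ZR-75-1, 5 were higher and 7 lower, where 42.8% and 41.5% of all genes were. The median difference of the 13 from MDA-MB-231 was 0.06, beside 0.04 over all genes. Without the third B6TC array, 12 were tested, 3 were higher and 2 lower, and the median was −0.005. The shares of all genes come from the fit to all arrays, and none is given for the fit without that array. FURIN, the convertase that removes ADAM prodomains, was at 6.50, 6.27 and 6.22 in B6TC, 7.20, 7.25 and 7.39 in MDA-MB-231 and 6.67, 6.65 and 6.67 in ZR-75-1. It was lowest in B6TC, at −0.94 from MDA-MB-231 (standard error 0.077, limma adjusted p = 3.6e-06). PCSK5, another convertase, exceeded its MDA-MB-231 level by 1.23, and passed the filter through its B6TC arrays alone, so that the filter favored this call. RHBDF1 encodes an inactive rhomboid protein (iRhom) that carries ADAM17 through the secretory pathway. Its level was 7.54 on all 3 arrays of B6TC, 6.42, 6.42 and 6.54 for MDA-MB-231, and 9.19, 9.15 and 9.20 for ZR-75-1. It thus lay between the parental lines, 1.08 above MDA-MB-231 (standard error 0.046, limma adjusted p = 9.2e-08) and at −1.64 from ZR-75-1. FRMD8, which binds and stabilizes iRhoms, exceeded its MDA-MB-231 level by 0.95 and was likewise highest in ZR-75-1. TSPAN5, a tetraspanin that carries ADAM10, was higher than in ZR-75-1 by 1.83. The other tested tetraspanins of this list were all called lower than in ZR-75-1. They were TSPAN15 at −0.93, TSPAN14 at −0.84, TSPAN33 at −0.57 and TSPAN17 at −0.31.

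Of 5 inhibitors of these proteases, 4 were lower and none higher in B6TC cells than in MDA-MB-231. Over all genes tested, 28.6% were called lower and 36.5% higher. The median of the 5 was −0.26, beside 0.04 over all genes. TIMP4, a tissue inhibitor of metalloproteinases, was at 6.03, 5.61 and 6.04 in B6TC, 7.31, 7.25 and 7.17 in MDA-MB-231 and 4.03, 4.30 and 3.86 in ZR-75-1. Its difference from MDA-MB-231 was −1.35 (standard error 0.13, limma adjusted p = 1.1e-05). TIMP2 differed by −0.28, RECK, a membrane-anchored inhibitor, by −0.26 and TIMP1 by −0.24, all called by limma. These differences were close in size to the median absolute difference over all genes, 0.25. TIMP3, the inhibitor of ADAM17 and of ADAMTS proteases, averaged 10.41 in B6TC cells and 10.40 in MDA-MB-231 cells, a difference of 0.01 (standard error 0.051, limma adjusted p = 0.880). It was 3.44 above its level in ZR-75-1. Against ZR-75-1, TIMP2, TIMP3 and TIMP4 were higher in B6TC, RECK was lower and TIMP1 did not pass. No ZR-75-1 array of TIMP4 reached the filter level.

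Genes of proteins that these proteases cut moved in both directions, as genes did over the whole array. Of 24 tested membrane proteins known to be shed, 9 were higher and 6 lower in B6TC cells than in MDA-MB-231. Over all genes tested, 36.5% were higher and 28.6% lower. Without the third B6TC array, 7 of the 24 were higher and 5 lower. The shares of all genes, here and below, come from the fit to all arrays, and none is given for the fit without that array. The median difference of the 24 was 0.04, as it was over all genes. TGFA, a ligand of the epidermal growth factor receptor shed by ADAM17, differed by −1.26 with a standard error of 0.073 (limma adjusted p = 4.6e-07). APP, the amyloid precursor protein cut by ADAM10, was higher by 0.89 and EREG, the ligand epiregulin, by 0.75. CDH1, the E-cadherin gene, was at 3.38, 3.26 and 6.89 on the B6TC arrays, and its difference of 0.95 from MDA-MB-231 did not pass (limma adjusted p = 0.303). Without the third array that difference was −0.24. Against ZR-75-1, 12 were called higher and 9 lower, where 42.8% and 41.5% of all genes tested were. Of the 12, EREG, AXL, NRG1 and HBEGF reached the filter level on no ZR-75-1 array, and of the 9, ERBB4, CXCL16 and IL6R reached it on ZR-75-1 arrays alone, so that the filter favored these calls. CDH1 reached it in B6TC on the third array alone. Of 6 tested matrix proteins cut by ADAMTS proteases, 2 were higher and 2 lower in B6TC cells than in MDA-MB-231. Of all genes tested, 36.5% were higher and 28.6% lower. The median of the 6 was −0.06, beside 0.04 over all genes. Without the third B6TC array, 5 were tested, VCAN no longer among them, and 1 was higher and 1 lower. VCAN, which encodes versican, was at 6.58, 6.45 and 6.46 in B6TC, 5.32, 5.31 and 5.35 in MDA-MB-231 and 4.25, 3.95 and 4.39 in ZR-75-1. It was highest in B6TC, by 1.17 over MDA-MB-231, and passed the filter through its B6TC arrays alone. The filter thus favored this call, and the difference is given as a description only. TFPI2, a protease inhibitor of the matrix, exceeded its MDA-MB-231 level by 0.94, and THBS1, which encodes thrombospondin, was lower at −1.32. BCAN, the brevican gene, was lower at −0.19 (limma adjusted p = 0.0159), a call that was lost without the third B6TC array (−0.17, limma adjusted p = 0.0584).

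**Figure D4:**
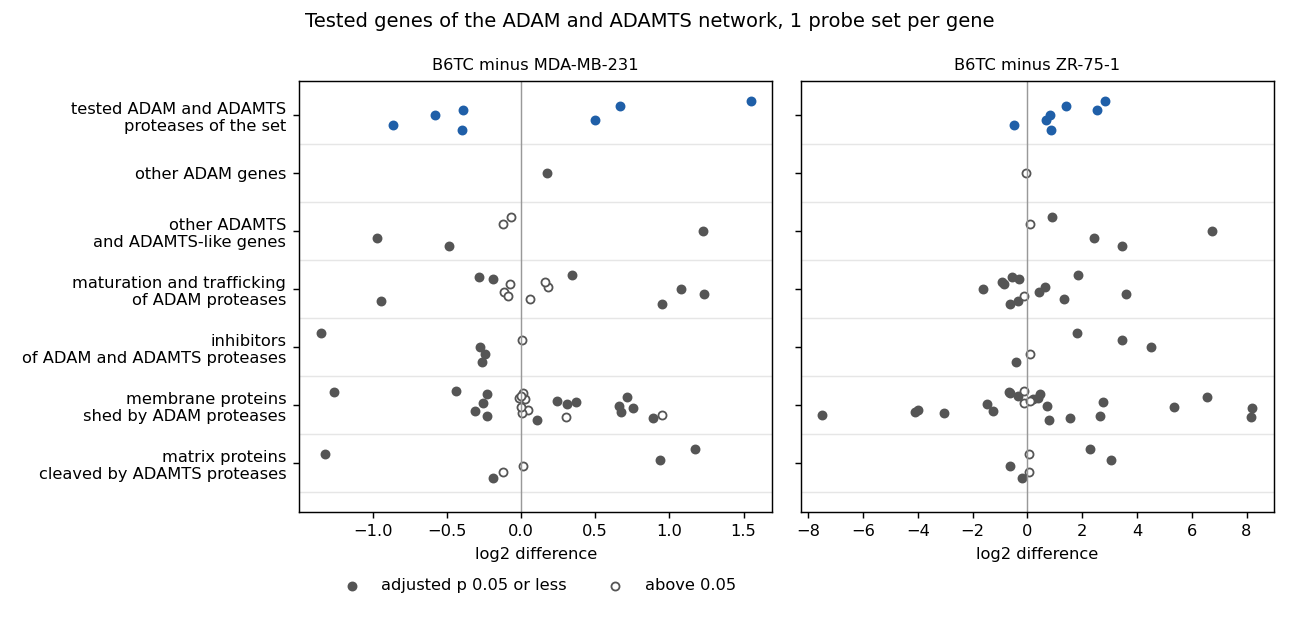
Log2 difference of B6TC from MDA-MB-231 (left) and from ZR-75-1 (right) on the x axes for the tested genes of 7 groups on the y axis, with 3 arrays per line and 1 probe set per gene. Each point is 1 gene, filled where the limma adjusted p is 0.05 or less, and the blue points of the ADAM and ADAMTS proteases lie on both sides of 0 on the left while all but ADAM15 lie right of 0 on the right. The vertical order of the points within a group has no meaning.

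The genes with the nearest pattern were sought for each of the 7 proteases among 10697 other tested genes, by the root mean square distance of their values over the 9 arrays after each gene was centered on its mean. The nearest to ADAMTS1 was CPA3, a carboxypeptidase of mast cells, at a distance of 0.107, which was 1.57 above MDA-MB-231 and 2.97 above ZR-75-1 in B6TC. The nearest to ADAM8 were TRIP10, ABL2 and LOXL1, at 0.127 to 0.133. ABL2 is a tyrosine kinase that acts on the actin cytoskeleton, and LOXL1 a lysyl oxidase of elastic fibers. The nearest to ADAM10 was PPP2R5D, a regulatory subunit of a protein phosphatase, at 0.0253. That of ADAM17 at 213532_at was RINT1, a gene of vesicle transport, at 0.0423. PSMC3IP was nearest to ADAM9 at 202381_at with 0.0412, LRRC61 to ADAM15 with 0.0659 and HLA-G to ADAM19 with 0.101. With 3 lines and 9 arrays many genes share each pattern, and the distances describe these arrays only.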

How the data were processed

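RNA of 3 cell lines, each on 3 arrays that the labels name technical replicates, was profiled on the U133 Plus 2.0 platform. The deposited log2 values came from Expression Console (Affymetrix) by RMA, as the authors state in their submission. The paper names GC-RMA instead, and neither could be repeated from the values. The number of arrays limits the precision. Genes were named by the platform annotation, which gives 1 symbol to 41091 probe sets, several to 1801 and none to 11721. The 62 control probe sets were left out. Lines were compared over all 9 arrays (R 4.3.3, limma 3.58.1) by their means. The fit had 6 residual and 3.68 prior degrees of freedom, and p-values were adjusted by Benjamini-Hochberg over the 21095 probe sets that passed the filter (a log2 value of 6 or more on at least 3 arrays). The procedure was checked on simulated data. Of several probe sets, the one with the highest mean over all arrays stands for the gene.
The 10 genes and the lists of related genes were chosen with earlier results of these data known. All 10 are described. Of the lists, genes named are among the 4 with the largest change in a comparison, and the nearest genes are the first 3 by distance. HBEGF, ERBB4, CXCL16 and IL6R, named for how they passed the filter, were chosen after their values were seen. So were TSPAN14, TSPAN15, TSPAN17 and TSPAN33, named beside TSPAN5. The alternatives were no filter and a lower filter of 5, quantile normalization, robust regression, and robust variances with a trend. Further ones were centering of each array on its median, a fit to just the lines compared, and averaging over the probe sets of each gene. The last were leaving out probe sets named _x_at or _s_at, a block for the replicate number, and leaving out each array in turn.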

Additional observations from a re-analysis of the deposited data

How the results depend on the processing

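The 7 calls between B6TC and ZR-75-1 kept their direction and stayed at an adjusted p of 0.05 or less by limma in every alternative that read the gene, as did those of 6 genes in each of the other comparisons, with ADAM17 as the exception. Between B6TC and MDA-MB-231 it lost its call with the mean of its probe sets (0.03, limma adjusted p = 0.624). Between MDA-MB-231 and ZR-75-1 it lost its call in 11 of 19 alternatives, where limma adjusted p ran up to 0.138. Leaving out 1 array at a time, its difference there was between 0.12 and 0.21, and with the mean of its probe sets it was 0.41. It was lost without B6TC array 1, MDA-MB-231 arrays 1 or 3, or ZR-75-1 arrays 1 or 2. No difference of the 7 genes changed sign in these 19 alternatives. The count of genes higher than in MDA-MB-231 was 4 with no filter, which adds ADAMTS5, and the count of genes higher than in ZR-75-1 was then 7. Without probe sets named _x_at or _s_at, ADAM8 and ADAMTS1 could not be read. ADAM10 was at −0.63 and ADAM9 at 0.18 from MDA-MB-231 with the mean of their probe sets, which moves them by over 1.5 times, as it does ADAM9 between MDA-MB-231 and ZR-75-1 (1.15).
The labels give the arrays of each line the same replicate numbers. Deviations from the line means had correlations of −0.10 to 0.18 between arrays of the same number. Between arrays of different numbers they ran from −0.21 to 0.23. With so few arrays this cannot tell whether arrays of the same number shared a step of the work. With the replicate block, ADAM17 lost its call between MDA-MB-231 and ZR-75-1 (limma adjusted p = 0.0678), where 6 genes were then called, and no other call of the 7 genes changed.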
